A study of Mus musculus with 4 samples.

Results

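Fibroblast growth factor (FGF) signalling was examined in mouse molar teeth through 38 genes, of 18193 genes measured on the array. They comprise 18 secreted ligands, 4 intracellular FGF homologous factors, 5 receptors, 1 ligand carrier (Fgfbp1), 8 feedback inhibitors and 2 Ets-family target genes, chosen by gene symbol, with no signal used in the rule, although the list was drawn up when earlier results of these data were known. Frs2, the docking adaptor that the selection also names, had no probe set naming it alone here and is not analysed. The RNA came from molars of 60 Swiss Webster pups of both sexes, taken on postnatal days 1 to 10 with no treatment, combined into 1 pool. That pool was hybridised to 4 Affymetrix Mouse Genome 430 2.0 arrays, which read each transcript near its 3′ end with a set of short oligonucleotides (a probe set). The 16 control tissues named in the study's design are not analysed here, so the only reference is the background of the arrays themselves. Because all 4 arrays carry the same pool, every SD and p-value below measures technical spread and nothing about variation between animals or ages.

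FGF ligands bind receptor tyrosine kinases together with heparan sulfate, and the activated receptor drives the Ras and MAP kinase cascade through docking adaptors. The cascade induces the Ets factors Etv4 and Etv5 and its own inhibitors, the Sprouty and Spred proteins and the phosphatase Dusp6, so these genes are widely used as readouts of the pathway. In teeth, FGFs carry signals in both directions between dental epithelium and mesenchyme: Fgf8 in the early oral epithelium, Fgf4, Fgf9 and Fgf20 in the enamel knots, and Fgf3 and Fgf10 in the mesenchyme beneath them.

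The deposited values are MAS5 signals on a linear scale, with no detection call. A gene was read from the probe set that was brightest on average and called above background if that signal exceeded the array's threshold on all 4 arrays. The threshold was the 95th percentile of 86 probe sets for olfactory, vomeronasal and taste receptor genes, and lay between 996 and 1295 signal units. Signals depend on the affinity of each probe set, so they are set against the threshold and not against other genes. Tooth markers were above background, as all 5 enamel genes (Amelx, Ambn, Enam, Mmp20 and Klk4) and all 4 dentin genes (Dspp, Dmp1, Col1a1 and Col1a2) passed. So did 5 of 6 skeletal muscle markers, 4 of 4 oral epithelium markers, 4 of 4 endothelial markers, 2 of 2 measured nerve markers, 4 of 4 macrophage and osteoclast markers and 1 of 4 cartilage markers. The pool is therefore mixed, no signal below is assigned to a cell type, and fewer cells of a type and less RNA per cell cannot be told apart.

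Among the receptors 4 of 5 were above background, and among the secreted ligands 1 of 18; the feedback inhibitors, at 5 of 8, lay near the share of all genes. Of the 38 genes, 12 were above background, where 51.5% of all genes were. The intracellular factors gave 1 of 4, the carrier 0 of 1 and the Ets targets 1 of 2. Fgfr4, Spry3, Spry4, Spred3 and Etv4 were not called. The median log2 ratio of signal to threshold was -1.17 for the secreted ligands, 2.33 for the receptors and 2.06 for the feedback inhibitors, beside 0.51 over all genes. A one-sided limma test against the threshold, adjusted over all 18193 genes by the Benjamini-Hochberg method, also called 12 of the 38, where it called 51.1% of all genes. The 12 were the same genes under both rules. The threshold sets these counts: at the 75th percentile of the receptor probe sets, 22 of the 38 genes and 7 of 18 secreted ligands were above background, beside 65.1% of all genes. When probe sets whose suffix (_s_at, _x_at or _a_at) marks shared sequence were left out, 2 of 4 receptors were called, beside 46.9% of all genes.

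**Figure D1:**
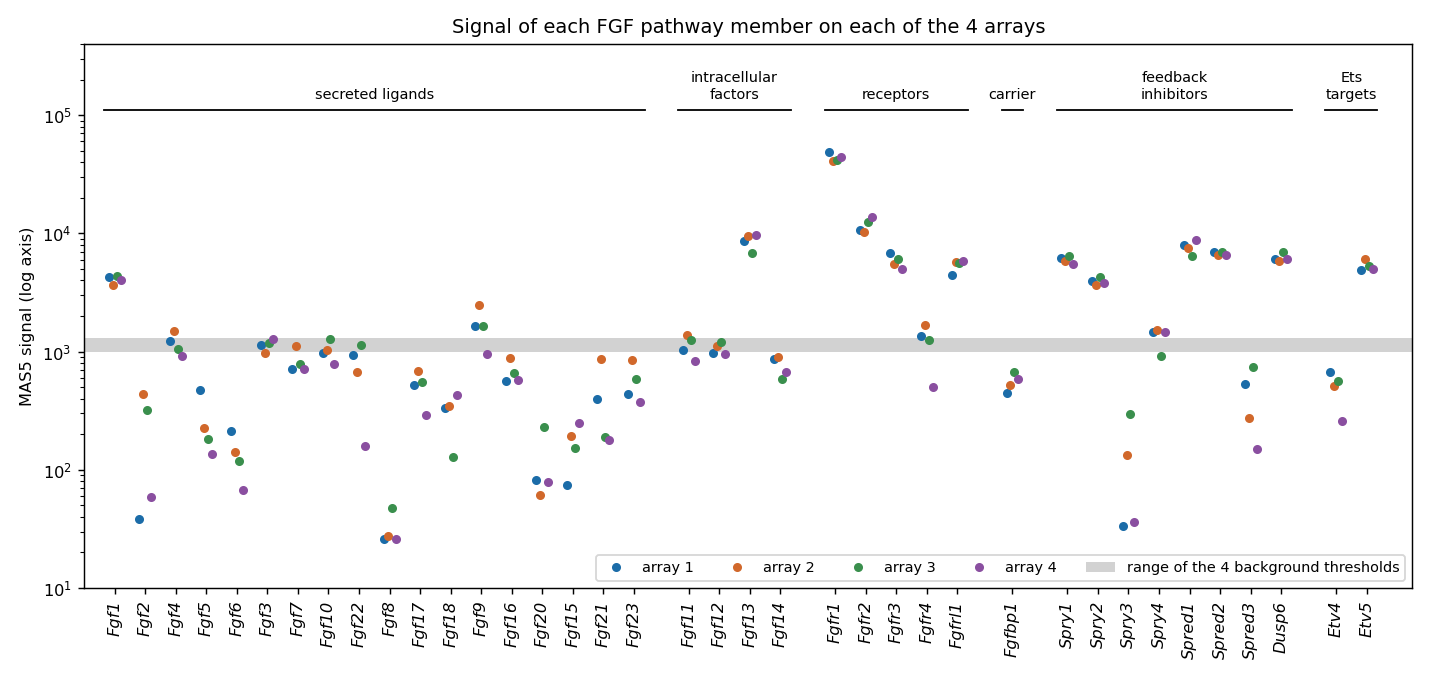
MAS5 signal (log axis) of each member on each of the 4 arrays, grouped by role, with 1 point per array; the grey band spans the 4 array thresholds (996 to 1295). Fgf1 is the only secreted ligand whose 4 points all clear the band, while 4 of 5 receptors lie above it.

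**Figure D2:**
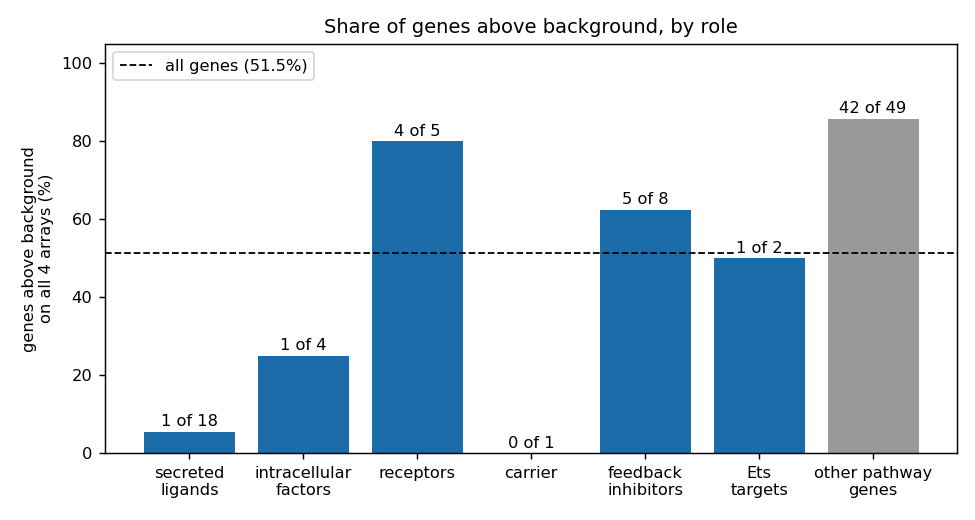
Percentage of genes above background on all 4 arrays in each role, with counts above the bars, and the share of all genes (51.5%) as a dashed line. Secreted ligands stand at 1 of 18 and receptors at 4 of 5; the grey bar gives the other pathway genes, at 42 of 49.

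Fgf1, a ligand that can activate all the signalling FGF receptors, was the secreted ligand above background. Its signal was 4255, 3631, 4388 and 4012 on arrays 1 to 4 (mean 4071 ± 332, SD, n = 4 arrays). All 4 values lay over the threshold, by 3.17-fold to 4.27-fold, and the mean log2 ratio to the threshold was 1.81 ± 0.13 (limma SE, adjusted p = 7.04e-12). A second probe set of Fgf1 was also above background, at 2390 to 2561, while its last probe set gave 56.6 to 306. The other member of its subfamily, Fgf2, has a single probe set here, which gave 38.5, 442, 320 and 59.4 and exceeded the threshold on 0 arrays.

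Fgf9, an epithelial signal of the enamel knots that acts on the mesenchyme, lay at the edge of the call. It gave 1653, 2499, 1659 and 948 on arrays 1 to 4. The first 3 values exceeded their thresholds, by 1.66-fold, 2.28-fold and 1.28-fold, and array 4 stood at 0.749 of its threshold. The limma adjusted p was 0.0537. Without array 4, Fgf9 was above background. Its second probe set ranged from 406 to 665 and exceeded the threshold on 0 arrays. The remaining genes of the Fgf9 subfamily were below the threshold. Fgf16, known from heart, gave 567 to 879. Fgf20, another ligand of the enamel knot, gave 82.2, 60.7, 228 and 78.7, also under the threshold on all 4 arrays.

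Fgf3 and Fgf4 each straddled the threshold, on 2 arrays of 4. Fgf3, a mesenchymal ligand that sustains the dental epithelium, gave 1128, 970, 1183 and 1271, which ran from 0.884 to 1.13 times the threshold. Fgf4, a ligand of the enamel knots, gave 1236, 1490, 1044 and 914, higher on arrays 1 and 2 and lower on arrays 3 and 4 than the respective thresholds. None of the other probe sets of these genes, 2 for Fgf3 and 3 for Fgf4, was above background. Fgf10, which partners Fgf3 in the mesenchyme and is needed for the epithelial stem cell niche of the continuously growing incisor, gave 982, 1022, 1271 and 788. These values came within 2% of the threshold on arrays 1 and 3 and exceeded it on none. Fgf7, the keratinocyte growth factor made by connective tissue, gave 707, 1120, 781 and 715, and cleared the threshold on array 2 alone, by 1.02-fold.

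Fgf8, the ligand that starts tooth formation in the embryonic oral epithelium, lay far below the threshold. It gave 26.1, 27.8, 47.1 and 26.0, at most 0.0364 of the threshold. The subfamily of Fgf8 as a whole had 0 of 3 genes above background, with Fgf17 at 291 to 688 and Fgf18, a skeletal growth factor, at 129 to 426. Of the Fgf4 subfamily, Fgf5, an inhibitor of hair growth, gave 136 to 471. Fgf6, a ligand known from skeletal muscle, gave 67.4 to 211 from its single probe set. Of the 6 muscle markers, 5 were above background (mean signals 4235 to 20889) and Myog was not, at 451. Their relation to the Fgf6 signal was not tested. Fgf22, of the Fgf7 subfamily, gave 931, 673, 1139 and 158, below its threshold on every array and lowest on array 4.

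Endocrine FGFs circulate as hormones and need a Klotho protein as coreceptor. None of the 3 exceeded the threshold on any array: Fgf15, an ileal hormone, gave 74.1 to 250, Fgf21, mainly from liver, 180 to 859, and Fgf23, the phosphate-regulating hormone of bone, 376 to 843. The Klotho coreceptor genes were also below it, with mean signals of 134 ± 28.8 for Kl and 250 ± 322 for Klb. A signal below the threshold does not show that a transcript was absent, and a ligand made by few cells of the pool would be diluted by the rest.

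The number of probe sets per gene bears on such counts, because a gene was read from its brightest probe set. Over all genes, 35.2% were above background among those with 1 probe set, 60.0% with 2, 73.2% with 3 and 81.8% with 4 or more. Among the secreted ligands the counts within these classes were 0 of 10, 0 of 5, 1 of 2 and 0 of 1. Genes with 1 probe set numbered 10 of 18 secreted ligands and 9183 of all 18193 genes. The part of probe set number in the ligand count was not tested. No secreted ligand with 1 or 2 probe sets was called. The receptors all have 2 or more: 2 for Fgfr3 and Fgfrl1, 3 for Fgfr1 and Fgfr2, and 5 for Fgfr4. Their count of 4 of 5 thus stands beside class shares of 60.0% to 81.8% of all genes. The effect of probe set number on the receptor count was not tested.

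The intracellular FGF homologous factors are not secreted and do not act through FGF receptors in the usual way; they are known for binding voltage-gated sodium channels. Fgf13, an X-linked member that also binds microtubules, was the only one above background, at 8679, 9412, 6865 and 9685 (mean 8660 ± 1270, SD, n = 4). Array 3 was the lowest of these, and still 5.30-fold over its threshold (mean log2 ratio 2.89 ± 0.12, limma SE, adjusted p = 4.15e-16). The second Fgf13 probe set gave 746 to 1202 and exceeded the threshold on 1 array, so the call rests on 1 of 2 probe sets. Fgf11 gave 1030, 1370, 1258 and 833, above the threshold on arrays 1 and 2. Fgf12 gave 980, 1106, 1194 and 953, above it on array 2 only. Fgf14 ranged from 586 to 902 and exceeded it on no array. The 2 measured nerve markers, Pmp22 and Stmn2, were above background at 29524 ± 1595 and 5174 ± 508, and their part in the Fgf13 signal was not tested.

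Among the receptor genes, Fgfr1, the main receptor of mesenchymal tissues, was above background. It gave 48411, 41321, 41740 and 44253 (mean 43931 ± 3255, SD, n = 4), between 32.2-fold and 48.6-fold over threshold (limma adjusted p = 1.84e-20). A second Fgfr1 probe set gave 41917 to 45769 and the last 3772 to 5204, and all 3 were above background. The last is the only one without a suffix marking shared sequence, and with suffixed probe sets left out, from the background set too, the mean log2 ratio to the threshold was 1.92 in place of 5.24. Probe sets of the same gene thus differed widely in signal, and signals were not ranked as amounts of mRNA.

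Fgfr2, whose epithelial isoform receives Fgf3, Fgf7 and Fgf10, gave 10703, 10337, 12368 and 13798 (mean 11802 ± 1597, mean log2 ratio 3.34 ± 0.10, limma SE, adjusted p = 1.56e-18). A second probe set, with the suffix _a_at, gave 8894 to 10901. The last, the only Fgfr2 probe set without a suffix marking shared sequence, gave 493 to 1273 and was not above background. The probe sets do not separate the epithelial and mesenchymal splice forms in the files used here. Fgfr3, known as a brake on cartilage growth, gave 6805, 5520, 6113 and 5027, and its second probe set 2066 to 2575. Every array lay at least 3.97-fold over the threshold for the first (limma adjusted p = 5.41e-14). Of the cartilage markers, Col2a1 was above background (4118 ± 918) and Acan, Col9a1 and Col10a1 were not. Acan and Col9a1 each exceeded the threshold on 2 arrays. The part of cartilage in the Fgfr3 signal was not tested.

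Fgfrl1, a receptor-like protein that lacks the tyrosine kinase domain, gave 4468, 5723, 5578 and 5810 (limma adjusted p = 2.51e-14). Array 1 was below the other 3, and the ratio to the threshold ran from 4.31-fold to 5.22-fold. Fgfr4, known from liver and from differentiating muscle, was the receptor not called. It gave 1356, 1684, 1262 and 501, above the threshold on arrays 1 and 2 only, and 0 of its 5 probe sets was above background. Leaving out any 1 array did not bring it above background.

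The ligand carrier Fgfbp1, which releases FGFs held on the extracellular matrix, gave 448, 522, 669 and 584. Its values stayed between 0.450 and 0.516 of the threshold, so all 4 arrays placed it below background.

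Feedback inhibitors were above background for Spry1, Spry2, Spred1, Spred2 and Dusp6. Spry1 and Spry2 are Sprouty proteins that block Ras activation downstream of FGF receptors, and loss of Sprouty function in mice produces extra teeth. Spry1 gave 6219, 5828, 6376 and 5558 (mean 5995 ± 372, SD, n = 4). Spry2 gave 3917, 3643, 4310 and 3806 (mean 3919 ± 284). The mean log2 ratios to the threshold were 2.37 ± 0.12 and 1.76 ± 0.13 (limma SE, adjusted p = 9.42e-15 and 1.22e-11). Spry1 has 1 probe set, and the second of Spry2 was not above background, at 64.3 to 410.

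Spry4, the Sprouty with a mesenchymal role in teeth, gave 1468, 1514, 922 and 1473. Arrays 1, 2 and 4 exceeded their thresholds and array 3 stood at 0.712 of its own, so it was not called (limma adjusted p = 0.384). Without array 3 it was above background. Spry3 gave 33.3 to 296 and exceeded the threshold on 0 arrays.

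Spred proteins bind and inhibit Ras through neurofibromin. Spred1 gave 7922, 7496, 6442 and 8821 (mean 7671 ± 988, SD, n = 4), and 7 of its 8 probe sets were above background. Spred2 gave 6898, 6496, 7015 and 6600 (mean 6752 ± 244), with the smallest SD of log2 signal among the 38 genes, 0.052. Its other 4 probe sets were not above background, so that call rests on 1 of 5. Nf1, the gene of neurofibromin, was above background at 2179 ± 331. Spred3 gave 149 to 737, below the threshold on every array.

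Dusp6, the phosphatase that dephosphorylates the MAP kinases ERK1 and ERK2, gave 6074, 5873, 6906 and 6076 (mean 6232 ± 459, SD, n = 4) from its single probe set. Every array lay over its threshold, by 4.80-fold to 6.10-fold (limma adjusted p = 2.83e-15). Of the Ets targets, Etv5 was called and Etv4 was not. Etv5 gave 4934, 6010, 5325 and 5026, with 3 of 3 probe sets above background and a mean log2 ratio of 2.20 ± 0.12 (limma SE, adjusted p = 6.74e-14). Etv4, the other PEA3-group factor measured as a member, gave 673, 513, 565 and 260 and exceeded the threshold on 0 arrays with either of its 2 probe sets.

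Ets factors of this group bind sites with a GGAA core. The 250 bases before the annotated start of each gene (RefSeq, GRCm38.p6) were searched on both strands for CCGGAA and for AGGAAG, the PEA3 element. These motifs do not overlap within the windows shown. Windows were present for 28 of the 38 genes, 10 of them above background. CCGGAA occurred in 1 of these 10, beside 13.6% of all 27025 genes with a window, and AGGAAG in 3 of 10, beside 32.3%. The windows of the 4 genes above background that hold a match are shown, so that the matches can be read in place. They are written 5′ to 3′ on the strand of the gene, with each match in capitals (a match on the opposite strand reads TTCCGG or CTTCCT).
Dusp6, chr10:99262981-99263230, plus strand: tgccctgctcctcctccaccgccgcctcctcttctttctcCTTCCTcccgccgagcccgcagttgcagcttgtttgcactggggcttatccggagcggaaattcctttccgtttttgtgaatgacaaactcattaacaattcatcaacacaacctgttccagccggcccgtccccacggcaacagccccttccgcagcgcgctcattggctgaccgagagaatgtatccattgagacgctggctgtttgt
Spred2, chr11:19924192-19924441, plus strand: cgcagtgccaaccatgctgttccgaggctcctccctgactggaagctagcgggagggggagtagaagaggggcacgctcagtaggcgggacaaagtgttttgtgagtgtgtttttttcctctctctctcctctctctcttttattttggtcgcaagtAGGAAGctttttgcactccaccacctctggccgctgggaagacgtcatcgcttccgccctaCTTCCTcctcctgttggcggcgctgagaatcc
Fgfr2, chr7:130266809-130267058, minus strand: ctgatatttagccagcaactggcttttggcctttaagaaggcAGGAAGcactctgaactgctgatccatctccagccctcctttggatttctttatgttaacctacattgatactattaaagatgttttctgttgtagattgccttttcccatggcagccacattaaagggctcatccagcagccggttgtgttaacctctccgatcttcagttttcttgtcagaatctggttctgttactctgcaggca
Fgfrl1, chr5:108693979-108694228, plus strand: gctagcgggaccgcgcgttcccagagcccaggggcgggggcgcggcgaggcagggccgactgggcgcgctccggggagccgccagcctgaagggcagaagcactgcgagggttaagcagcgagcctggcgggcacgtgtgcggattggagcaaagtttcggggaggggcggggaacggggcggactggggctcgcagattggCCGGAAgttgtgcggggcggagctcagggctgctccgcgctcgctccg
In Fgfrl1 the CCGGAA begins 48 bases before the start, and in Dusp6 the element, on the opposite strand, begins 210 bases before it. Spred2 holds 2 matches, beginning 93 and 32 bases before the start, and Fgfr2 holds 1, at 208. Spry1, Spry2, Spred1 and Etv5 held neither motif in this window, which says only that these letters are not there. The shares in members lie close to those of all genes, and a match is not evidence that a factor binds.

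Where several probe sets read 1 gene, they did not always give the same call. The 38 genes have 85 probe sets, of which 26 were above background, beside 42.5% of the 34945 single-gene probe sets on the array. Of 23 genes with 2 or more probe sets, 4 had all above background (Fgfr1, Fgfr3, Fgfrl1 and Etv5), 6 had some (Fgf1, Fgf13, Fgfr2, Spry2, Spred1 and Spred2) and 13 had none. By number of probe sets, the members called were 4 of 11 with 2, 4 of 6 with 3 and 2 of 6 with 4 or more. The shares of all genes in these classes were 60.0%, 73.2% and 81.8%. The brightest probe set carried a shared-sequence suffix in 4 of the 12 genes above background, namely Fgfr1, Fgfr2, Fgfrl1 and Spred1. That suffix was _a_at, for transcripts of the same gene, in Fgfr1, and _s_at in Fgfr2, Fgfrl1 and Spred1.

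**Figure D3:**
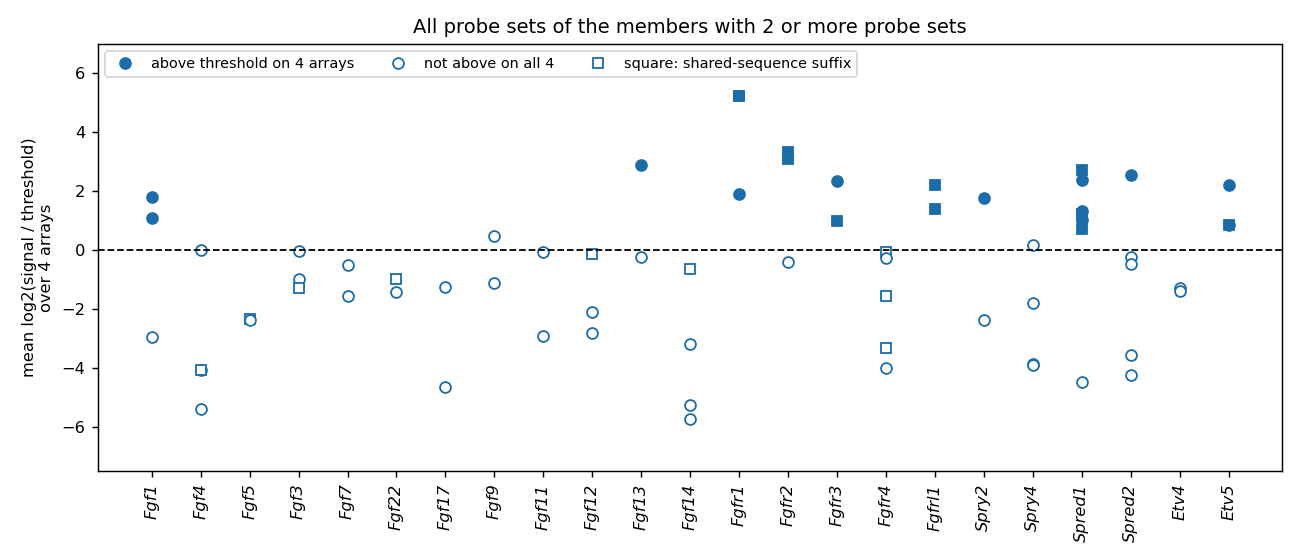
Mean log2 ratio of signal to threshold over 4 arrays for every probe set of the 23 genes with 2 or more; filled symbols exceed the threshold on all 4 arrays and squares carry a shared-sequence suffix. Fgfr1, Fgfr3, Fgfrl1 and Etv5 have all symbols filled, and Spred2 has 1 filled symbol of 5.

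The rest of the pathway was mostly above background. In a list of 56 further genes, written with earlier results of these data known, 49 were measured and 42 of these were above background (51.5% of all genes). That share takes no account of the number of probe sets per gene, whose effect on the count of 42 was not tested. The limma test called 41. Read from the median probe set of each gene, 31 of the 49 were called, beside 34.7% of all genes. Coreceptors and matrix cofactors gave 9 of 11, with the heparan sulfate proteoglycans Sdc1 at 33008 ± 2680 and Gpc3 at 26301 ± 3822. The genes not called in that list were the Klotho genes given above. Heparan sulfate synthesis gave 9 of 10, with the chain-building enzyme Ext2 at 17876 ± 3756 and the sulfatase Sulf1, which trims sulfate groups that FGFs need, at 15565 ± 1037. Hs3st1, a sulfotransferase, gave 1027 ± 610 and passed on 3 arrays.

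Adaptors and Ras activators gave 12 of 13, with the phosphatase Ptpn11 at 19251 ± 1255 and Crk at 15877 ± 2487. Frs3, the relative of Frs2, was the exception, at 1504 ± 335 and over the threshold on 3 arrays. All 5 measured genes of the Ras to MAP kinase cascade were above background, with Map2k1 at 11511 ± 667 and Braf at 9122 ± 1230. Other modulators and response genes gave 7 of 10. The immediate early genes Egr1 and Ier2 had 19910 ± 1177 and 8082 ± 107, while Dusp4 (1165 ± 335) and Dusp5 (152 ± 46.7), MAP kinase phosphatases like Dusp6, were not above background. Flrt1, the gene of a membrane protein that binds FGF receptors, was called at 1307 ± 139 but had a limma adjusted p of 0.395.

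**Figure D4:**
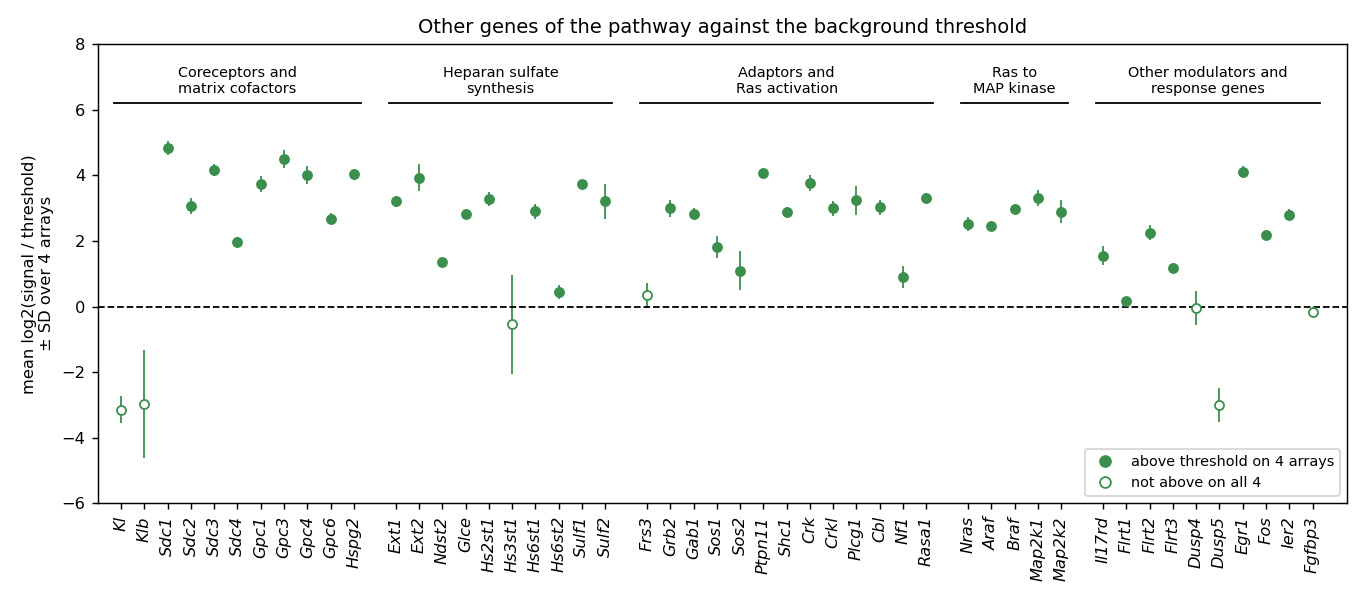
Mean log2 ratio of signal to threshold ± SD over 4 arrays for the 49 other pathway genes, in 5 sets; filled symbols exceed the threshold on all 4 arrays. Kl, Klb and Dusp5 lie at or below -2.98, and 42 of 49 symbols are filled.

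The precision behind these values followed brightness. Among the 12 genes above background the SD of log2 signal over the arrays ran from 0.052 (Spred2) to 0.23 (Fgf13), with a median of 0.12, beside 0.16 for all genes above background. Among the other 26 it ran from 0.15 (Fgf12) to 1.75 (Fgf2), with a median of 0.55, beside 0.62 for all genes not above background. Array 4 gave the lowest signal for 15 of these 26, a larger share than the 34.7% for all genes not above background. It did so for 2 of the 12 genes above background. The number of members over the threshold ran from 13 on array 3 to 19 on array 2, and that of secreted ligands from 2 on arrays 3 and 4 to 4 on arrays 1 and 2.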

How the data were processed

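RNA of 1 tooth pool was measured on 4 arrays. The deposited table holds linear signal intensity values that the authors made with MAS5, per the submitters' processing notes. Its version and settings are not stated in these sources. The trimmed mean without the outer 2% of probe sets was 2500 on each array, so signals had been scaled to 1 target. Dim MAS5 signals are noisy, because a mismatch estimate is taken off. Depth has no meaning for arrays, and their number limits the precision.

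Of 45101 probe sets, 34945 name 1 gene in the platform annotation, 932 several and 9160 none, and 64 controls were left out. All 38 member IDs matched the RefSeq gene table (GRCm38.p6), with no symbol changed. No pseudocount or filter on low values was used. limma (3.58.1) fitted the log2 ratio of signal to threshold, with its trend option on. R 4.3.3 and Python 3.11.15 were used. Members and lists were chosen with earlier results of these data known. Named genes are every member and, of each further list, the 2 called genes of highest signal and up to 2 not called; Nf1, Flrt1, Myog and the nerve and cartilage markers were named after their values were seen. Alternatives were other percentiles and background sets (69 testis and retina probe sets), calls on 3 arrays, quantile normalisation, other probe set rules, limma without the trend and leaving out each array.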

Additional observations from a re-analysis of the deposited data

Results flagged for a closer look

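A gap test for 1 array standing apart from the other 3 was run on 41 sets of 4 values: the log2 signals of the 38 members, the thresholds, and the numbers of members and of secreted ligands over the threshold. It picked out 3, where chance gives about 1 in 20 (2.05 of 41). Fgf8 was higher on array 3 (5.56, others 4.70 to 4.80 on the log2 scale), far below the threshold on each array. Fgfrl1 was lower on array 1 (12.13, others 12.45 to 12.50) and above background on all 4. Spry4 was lower on array 3 (9.85, others 10.52 to 10.56), and that array decided its call. The arrays apart were 1 and 3. A cause was not tested.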

How the results depend on the processing

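The 12 calls kept their number with the 99th percentile (12), the testis and retina background (12), quantile normalisation (12), any probe set of a gene (12) and limma (12). In the same order, the share of all genes called was 48.2%, 52.1%, 51.5%, 51.6% and 51.1%. With the testis and retina background limma called 13, with Fgf9, beside 51.7% of all genes. With the 75th percentile as threshold, 22 of 38 members, 7 of 18 secreted ligands and 4 of 5 receptors were above background, beside 65.1% of all genes, and limma called 22, with Fgfr4 and without Fgf16. The ligands gained by the array rule were Fgf3, Fgf4, Fgf7, Fgf9, Fgf10 and Fgf16. Calls on at least 3 arrays gave 14 members, with Fgf9 and Spry4, and 2 secreted ligands, beside 55.8% of all genes. Leaving out each array gave 12 to 13 members, 1 to 2 secreted ligands (2 without array 4, with Fgf9), 4 receptors throughout, 6 to 7 feedback and Ets genes (7 without array 3, with Spry4), 42 to 44 other pathway genes and 12 to 13 limma calls. The share of all genes then ran from 51.7% to 54.1% by the array rule and from 49.8% to 51.9% by limma. Without shared-sequence suffixes 2 of 4 receptors were called, beside 46.9% of all genes: Fgfr2 had a log2 ratio of -0.40, and Fgfrl1 had no such probe set. The median probe set gave 9 members, with log2 ratios of -0.25 for Fgf13, -2.39 for Spry2 and -0.47 for Spred2, beside 34.7% of all genes. Over single members under the alternatives other than limma and the rule of 3 arrays, and only where a probe set was left, 399 values kept their side of the array call, 12 gained it and 4 turned below the threshold. The 399 include values that could not change, as the median and any probe set rules leave the 15 members with 1 probe set as they were. The any probe set rule also gave the main value for every other member. The tally is therefore not a measure of robustness. No paired analysis was possible because all 4 arrays form 1 group. Differences under the spread of dim probe sets were not detectable on 4 arrays.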
